A study of Mus musculus with 66 samples.

Results

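MiR-223 and miR-142a are miRNAs of blood cells, and each is cut from a hairpin precursor that can give a mature strand from its 5′ side (5p arm) and from its 3′ side (3p arm). The 4 mature miRNAs mmu-miR-223-3p, mmu-miR-223-5p, mmu-miR-142a-3p and mmu-miR-142a-5p were chosen by name out of 1826 miRNAs measured in plasma. All 4 were present, and all 4 were among the 1452 miRNAs that passed the filter of 5 UMIs in 5 mice. A UMI (unique molecular index) is a molecular barcode, so that each original RNA molecule is counted once. No member was listed at 0 in any mouse and the lowest member count was 395 UMIs, so the filter did not choose among them.

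Plasma was taken from 13 male mice of the inbred strain C3H, 8 with hepatocellular carcinoma (HCC) and 5 without (non-HCC). The labels give all 13 a time of over 12 months after radiation, and the study's methods describe cardiac puncture at necropsy. That time alone does not show that every mouse was irradiated. The methods also mix spontaneous and radiation-induced tumors in the HCC group, but the labels do not say which mouse had which, so the 8 were kept as 1 group, and treatment with radiation and the origin of the tumor cannot be told apart here. Blood was drawn into EDTA, plasma was spun repeatedly to remove platelets, and samples with hemolysis were left out.

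As background, miR-223 is made in myeloid cells and is very abundant in neutrophils, monocytes and platelets, where it restrains granulocyte maturation and activation. MiR-142 is found in nearly all blood cells, platelets included, and is needed for the normal development of lymphoid and myeloid cells. One arm of a hairpin is usually loaded into an Argonaute protein and guides it to target mRNAs through its seed (bases 2 to 8), and the other arm is mostly degraded.

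The mature sequences are shown because the arms of a hairpin differ in seed and because an antisense miRNA overlaps one of them. Sequences and positions are from RefSeq on GRCm38.p6, written 5′ to 3′ with the seed in capitals.
miR-223-3p: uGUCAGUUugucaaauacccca
miR-223-5p: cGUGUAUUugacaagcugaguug
miR-142a-3p: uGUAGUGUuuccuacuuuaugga
miR-142a-5p: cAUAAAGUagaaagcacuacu
miR-142b: uCCAUAAAguaggaaacacu

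In the hairpins, the arms are in capitals, the 5p arm first. They show how the paired strands lie on either side of the loop.
Mir223: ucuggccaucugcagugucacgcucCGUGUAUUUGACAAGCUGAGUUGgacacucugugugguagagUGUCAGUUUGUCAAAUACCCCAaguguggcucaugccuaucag
Mir142: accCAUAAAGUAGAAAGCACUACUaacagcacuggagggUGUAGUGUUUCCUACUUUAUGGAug

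Mir223 lies on the plus strand of chromosome X at chrX:96242817-96242926, with miR-223-5p at chrX:96242842-96242864 and miR-223-3p at chrX:96242884-96242905. The GENCODE M21 annotation places it in an exon of the noncoding gene F630028O10Rik, on the same strand. Mir142 lies on the plus strand of chromosome 11 at chr11:87756864-87756927, with miR-142a-5p at chr11:87756867-87756887 and miR-142a-3p at chr11:87756903-87756925. It sits in an intron of the long noncoding RNA Mir142hg, also on the same strand. On the opposite strand, Mir142b gives miR-142b at chr11:87756906-87756925. The whole of miR-142b is the reverse complement of 20 bases of miR-142a-3p, and it shares a run of 10 bases, CAUAAAGUAG, with miR-142a-5p. Since miR-142b resembles miR-142a-5p over this run, its own count is given beside the members. Of the 1826 miRNAs, 1563 had a matched sequence, and 0 of these carry the seed of a member other than the member itself.

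The libraries held 9513136 to 14247488 UMIs of miRNAs in the HCC group and 10467560 to 13962539 in the non-HCC group. Of these, the liver miRNA miR-122-5p took 2.2007 to 42.7019% with HCC and 0.18 to 0.4236% without. In all, 3 pairs of HCC libraries resembled each other far more than the rest: the SD of the log2 ratio over well-counted miRNAs was 0.153 between HCC mice 1 and 6, 0.245 between 2 and 5 and 0.245 between 3 and 7. The other HCC pairs had an SD of 0.982 or more, and non-HCC pairs lay at 0.366 and above. The counts of each pair still differed by more than sampling noise (chi-square of 46.4, 73.1 and 97.2 per degree of freedom over 699 miRNAs). The labels name 8 mice, so the main results use 8 HCC libraries, and the levels, spike-in fold changes, shares and arm ratios of the members are also given with the 3 pairs summed, which leaves 5 HCC libraries. The p-values measure the spread between these libraries. Those over all mice or over the 8 HCC mice treat the similar pairs as separate mice, so they can be too small.

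Levels were set on the mean UMI count of both synthetic spike-ins (UniSP2 and UniSP4) that had been added to the plasma before RNA isolation, as log2 of the count plus 1 UMI. UniSP2 had 165794 to 938898 UMIs in a library and UniSP4 225 to 1008, so UniSP2 set this mean almost alone. MiR-223-3p, the arm of miR-223 that is known as its guide strand, had log2 levels of 15.58, 16.59, 14.29, 16.82, 16.68, 16.47, 14.44 and 15.23 in HCC mice 1 to 8, and of 16.02, 15.70, 15.91, 17.04 and 17.79 in non-HCC mice 1 to 5. Non-HCC mouse 5 was the highest of all, HCC mice 3 and 7 were the lowest, and the groups overlapped. HCC mice 3 and 7 also had the highest UniSP2 counts, 875017 and 938898 UMIs. The mean level was 15.76 ± 1.03 (SD, n = 8) with HCC and 16.49 ± 0.89 (SD, n = 5) without. The difference of -0.73 did not exceed the spread of the groups (two-sided exact permutation, p = 0.221, and p = 0.294 with the pairs summed).

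MiR-223-5p, the passenger arm, had log2 levels of 9.59, 10.08, 8.00, 10.31, 10.33, 10.42, 8.01 and 8.76 in HCC mice 1 to 8 and of 9.63, 9.00, 8.96, 10.28 and 10.94 in non-HCC mice 1 to 5. The same mice were at the extremes as for the 3p arm. The group means were 9.44 ± 1.04 (SD, n = 8) and 9.76 ± 0.85 (SD, n = 5), which differed by -0.32 (exact permutation p = 0.55, and p = 0.611 with the pairs summed).

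MiR-142a-3p had log2 levels of 15.04, 17.99, 15.55, 16.94, 18.17, 16.14, 15.45 and 15.19 in HCC mice 1 to 8 and of 16.40, 16.97, 16.13, 16.92 and 18.71 in non-HCC mice 1 to 5. HCC mice 2 and 5 stood above 4 of the 5 non-HCC mice, while 4 HCC mice lay below all of them. The means were 16.31 ± 1.25 (SD, n = 8) and 17.03 ± 1.01 (SD, n = 5), a difference of -0.72 (exact permutation p = 0.301, and p = 0.31 with the pairs summed).

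MiR-142a-5p had log2 levels of 9.98, 13.31, 10.61, 12.06, 14.24, 11.05, 10.42 and 10.20 in HCC mice 1 to 8 and of 11.26, 13.55, 12.08, 12.19 and 15.78 in non-HCC mice 1 to 5. It was the most variable member in both groups, and HCC mice 2, 4 and 5 lay among the non-HCC mice. The means were 11.48 ± 1.57 (SD, n = 8) and 12.97 ± 1.77 (SD, n = 5), and the difference of -1.49 did not exceed the spread of the groups (exact permutation p = 0.14, and p = 0.183 with the pairs summed).

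**Figure D1:**
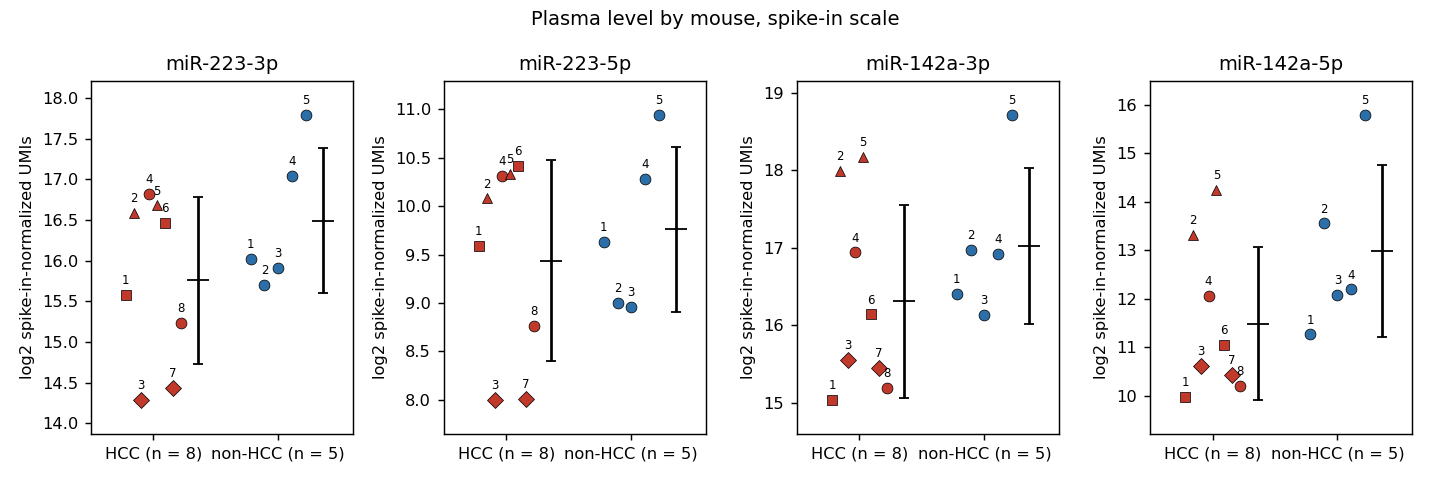
Log2 spike-in-normalized UMIs of each member (vertical axis, a panel each) in 8 HCC mice (red) and 5 non-HCC mice (blue), numbered by mouse, with the mean ± SD in black. HCC libraries that resembled each other share a marker (squares, triangles, diamonds), and the groups overlap in all 4 panels.

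Across all miRNAs, edgeR's quasi-likelihood test with the spike-in scale and Benjamini-Hochberg adjustment called 109 of 1452 miRNAs at 0.05 (7.51%), 109 higher in HCC and 0 lower. Also on single levels, for 0 of the 1452 miRNAs did every HCC mouse lie below every non-HCC mouse. At an unadjusted p under 0.05, 3 miRNAs were lower, and DESeq2 with the same spike-in scale called 2 lower. None of the 4 members was called. The log2 fold change of HCC over non-HCC was -0.69 (SE 0.58, adjusted p = 0.632) for miR-223-3p and -0.25 (SE 0.59, adjusted p = 0.917) for miR-223-5p. It was -0.55 (SE 0.65, adjusted p = 0.758) for miR-142a-3p and -1.64 (SE 0.81, adjusted p = 0.277) for miR-142a-5p. With the pairs summed, the values were -0.67, -0.28, -0.66 and -1.80 in that order, and none was called (adjusted p = 0.656, 0.895, 0.715 and 0.294). Without non-HCC mouse 5, they were -0.23, 0.14, 0.16 and -0.19 in that order, so the sign of miR-223-5p and miR-142a-3p and most of the difference of miR-142a-5p rested on that mouse.

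The members stood low among all miRNAs. The median log2 fold change of the 1452 miRNAs was 0.78 on this scale and 277 of them (19.1%) had a value below 0, as all 4 members did. Only 61 miRNAs had a lower value than miR-223-3p, 154 a lower one than miR-223-5p, 74 a lower one than miR-142a-3p and 5 a lower one than miR-142a-5p. MiR-142b had a log2 fold change of -1.37 (SE 0.72, adjusted p = 0.318), with 12 miRNAs below it.

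The choice of scale set whether a member was called. With the total miRNA UMIs of each mouse as the scale, the median of all miRNAs moved to 0.37, and 484 of them (33.3%) lay below 0. EdgeR called 155 of 1452 miRNAs (10.7%), 32 lower in HCC (2.2%) and 123 higher (8.47%). Of the members, miR-223-3p fell by 1.06 on the log2 scale (SE 0.31, adjusted p = 0.036), miR-142a-3p by 1.11 (SE 0.28, adjusted p = 0.0204) and miR-142a-5p by 2.22 (SE 0.48, adjusted p = 0.00995). MiR-223-5p had a log2 fold change of -0.63 (SE 0.33, adjusted p = 0.3). With TMM factors, which edgeR derives from the table itself, the median of all miRNAs was 0.17 and 139 miRNAs were called (9.57%), 107 higher (7.37%) and again 32 lower (2.2%), with the same 3 members among them at -1.24 (adjusted p = 0.0116), -1.18 (adjusted p = 0.0338) and -2.28 (adjusted p = 0.0193). DESeq2 with its own size factors called 217 miRNAs (14.9%), 156 higher (10.7%) and 61 lower (4.2%), and called all 4 members lower, miR-223-5p included (-0.77, adjusted p = 0.034). Relative to the median of all miRNAs, the difference of a member was about as large with each scale: for miR-142a-5p it was -2.42 with spike-ins, -2.59 with total UMIs and -2.46 with TMM factors.

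**Figure D2:**
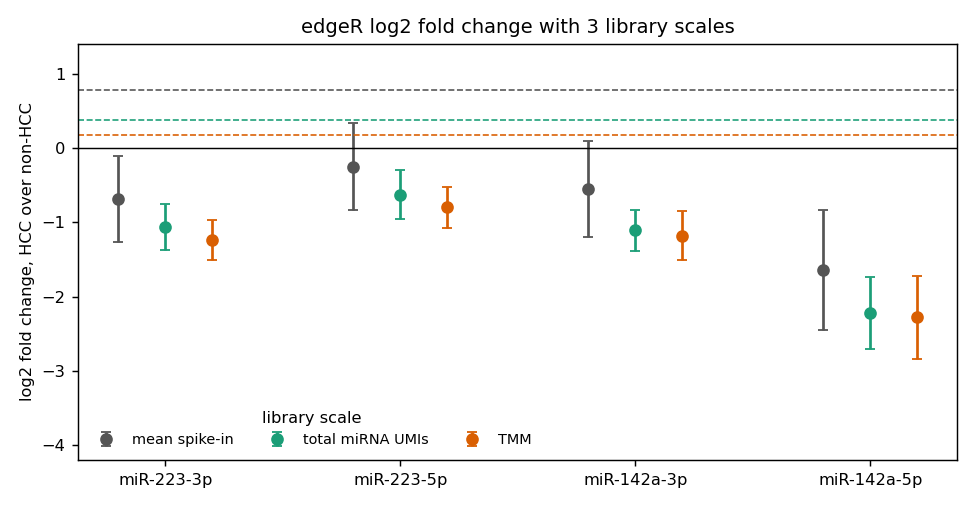
Log2 fold change of HCC over non-HCC mice (points, with bars of 1 SE) by edgeR for the 4 members on 3 library scales, with the median over all 1452 miRNAs on each scale as a dashed line of the same color. All points lie below 0 and below the dashed lines, which stand at 0.78, 0.37 and 0.17, and the error bars are wider on the spike-in scale.

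As a share of all miRNA UMIs in a mouse, miR-223-3p ranged from 0.253 to 0.73% in HCC mice, with a median of 0.462%, against 0.932, 0.555, 0.78, 1.24 and 1.24% in non-HCC mice 1 to 5. The lowest shares were those of the similar HCC mice 2 and 5, and 5 of 8 HCC mice lay below every non-HCC mouse. The mean share was 0.457 ± 0.172% (SD, n = 8) with HCC and 0.949 ± 0.297% (SD, n = 5) without, and the mean log2 share was lower by more than the spread between mice (difference -1.09, exact permutation p = 0.00622, and -0.97 with p = 0.0317 with the pairs summed). It ranked 25th to 40th among the miRNAs of an HCC mouse and 15th to 27th in a non-HCC mouse.

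MiR-142a-3p made up 0.383 to 0.84% of the UMIs in HCC mice, with the lowest shares in the similar mice 1 and 6, against 1.22, 1.34, 0.907, 1.15 and 2.35% in non-HCC mice 1 to 5. All 8 HCC mice lay below all 5 non-HCC mice, as they did for 30 of the 1452 miRNAs tested (2.07%). The means were 0.646 ± 0.166% (SD, n = 8) and 1.39 ± 0.557% (SD, n = 5). The log2 difference of -1.08 had an exact permutation p of 0.000777, the smallest that 1287 splits allow, and with the pairs summed it was -1.06 with p = 0.00794, the smallest that 252 splits allow. It ranked 20th to 33rd in HCC and 8th to 16th in non-HCC mice.

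MiR-142a-5p took 0.0114 to 0.0479% with HCC and 0.0344, 0.125, 0.055, 0.043 and 0.306% in non-HCC mice 1 to 5. Only HCC mouse 5 overlapped with the non-HCC group. The log2 difference was -1.85 (exact permutation p = 0.00233, and p = 0.0159 with the pairs summed). MiR-223-5p, with 0.00579 ± 0.00241% (SD, n = 8) with HCC and 0.00898 ± 0.00292% (SD, n = 5) without, did not pass (log2 difference -0.68, exact permutation p = 0.0746, and p = 0.151 with the pairs summed). The share of miR-142b, 0.00769% in HCC and 0.0243% in non-HCC mice on average, differed by -1.35 on the log2 scale (exact permutation p = 0.0101).

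The median log2 share of miRNAs with under 40% GC minus that of miRNAs with over 55% GC, each relative to its mean over mice, correlated over the 13 mice with the log2 shares of miR-142a-3p (r = 0.76) and miR-142a-5p (r = 0.82), and its part in the share differences was not tested. Shares add up to a whole, so a miRNA that rises lowers the shares of the rest. With miR-122-5p left out of the total, the log2 differences were smaller, at -0.71 for miR-223-3p (exact permutation p = 0.0676), -0.31 for miR-223-5p (p = 0.445 by the same permutation test), -0.70 for miR-142a-3p (permutation p = 0.00233) and -1.47 for miR-142a-5p (permutation p = 0.0101). The difference of miR-223-3p thus no longer passed the threshold, while both arms of miR-142a still did. Shares of UMIs carry little counting error at this depth, since the rarest member value, 395 UMIs of miR-223-5p in HCC mouse 2, was 0.00277% of the UMIs with a 95% Wilson interval of 0.00251 to 0.00306%.

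**Figure D3:**
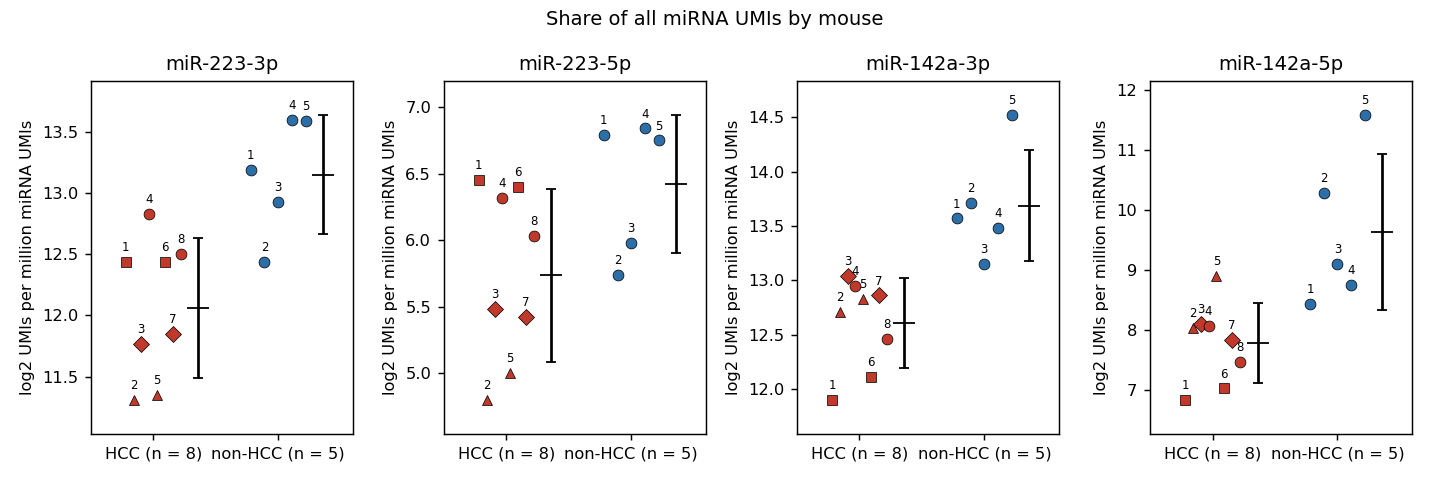
Log2 share of all miRNA UMIs for each member (vertical axis, a panel each) by mouse, drawn as in the plot of spike-in levels, with the mean ± SD in black. MiR-142a-3p separates the groups completely, miR-142a-5p with 1 HCC mouse as the exception, and both arms of miR-223 overlap between groups.

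The ratio of the arms of a hairpin comes from 1 library and needs no scale. Ligation and amplification can favor some sequences, so a ratio of UMIs between arms is best compared between mice. The 3p arm dominated both hairpins in all 13 mice. For miR-223 there were 89.3 UMIs of the 3p arm for each UMI of the 5p arm (geometric mean over the 13 mice). This was the 15th highest of 161 hairpins with both arms at 10 UMIs or more in every mouse. For miR-142a there were 23.1 by the same mean, the 29th highest. Of all 161 hairpins, 74 had more 3p than 5p UMIs, and the median hairpin had a log2 ratio of -0.54.

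The arm ratio of miR-223 was steady. It was 63.5, 91.4, 78.5, 91.5, 81.6, 66.1, 86.5 and 88.5 UMIs of the 3p arm per 5p UMI in HCC mice 1 to 8 and 84, 104, 124, 109 and 115 in non-HCC mice 1 to 5. The SD of its log2 ratio over the 13 mice was 0.286, the 11th smallest of 161 hairpins, where the median SD was 0.648. The lowest ratios were those of the similar HCC mice 1 and 6, and only non-HCC mouse 1 fell among the HCC mice. The mean log2 ratio was 6.32 ± 0.21 (SD, n = 8) with HCC and 6.73 ± 0.21 (SD, n = 5) without, which differed by -0.41 (exact permutation p = 0.00699, and -0.37 with p = 0.0317 with the pairs summed). In limma over all 161 hairpins it was not called after adjustment (SE 0.17, adjusted p = 0.0921), where 33 hairpins were (20.5%), 14 lower in HCC (8.7%) and 19 higher (11.8%). Before adjustment, 62 of the 161 hairpins had a limma p under 0.05, miR-223 among them (limma p = 0.0288). In 38 hairpins the difference was lower than that of miR-223.

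The arm ratio of miR-142a moved by mouse. It was 33.5, 25.6, 30.7, 29.5, 15.2, 34, 32.6 and 31.8 in HCC mice 1 to 8, and 35.3, 10.7, 16.5, 26.7 and 7.66 in non-HCC mice 1 to 5. In 7 of 8 HCC mice the ratio lay in a narrow range and HCC mouse 5 stood apart. The non-HCC mice spread from the highest ratio of all, in mouse 1, to the lowest, in mouse 5. The SD of the log2 ratio was 0.384 over the 8 HCC and 0.908 over the 5 non-HCC mice, the latter the 152nd smallest, so among the largest, of the 161 hairpins. The means were 4.82 ± 0.38 (SD, n = 8) and 4.06 ± 0.91 (SD, n = 5), and the difference of 0.77 did not pass (limma SE 0.34 and adjusted p = 0.108, exact permutation p = 0.0513, and p = 0.111 with the pairs summed).

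Neither arm ratio was called over all hairpins. The log2 arm ratio of miR-223 minus that of miR-142a, a contrast chosen after both ratios were seen, differed between the groups by -1.18 (exact permutation p = 0.0179), but did not pass with the pairs summed (p = 0.0714 by the same permutation test). The ratio of miR-142a-5p to the antisense miR-142b was 1.13 and 0.896 in HCC mice 1 and 6, and from 2.23 to 6.57 in the other 6 HCC mice and from 3.55 to 5.07 in the non-HCC mice.

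**Figure D4:**
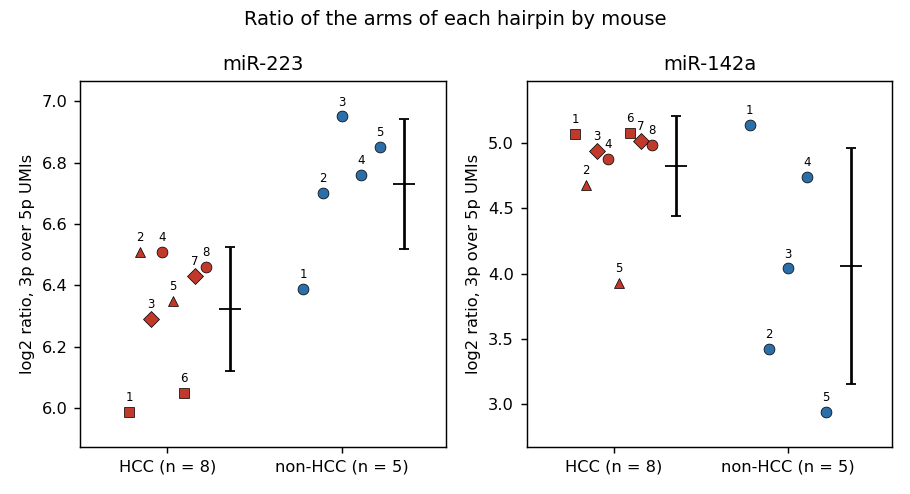
Log2 ratio of 3p over 5p UMIs (vertical axis) by mouse for miR-223 and miR-142a in 8 HCC (red) and 5 non-HCC (blue) mice, with the mean ± SD in black and similar HCC libraries sharing a marker. The miR-223 ratio keeps to 5.99 to 6.95, while that of miR-142a runs from 2.94 to 5.14 with its widest spread in non-HCC mice.

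Between the hairpins, the 3p arms did not part by group. The log2 ratio of miR-223-3p over miR-142a-3p was -0.55 ± 0.83 (SD, n = 8) with HCC and -0.54 ± 0.56 (SD, n = 5) without (difference -0.01, exact permutation p = 0.977, and 0.09 with p = 0.81 with the pairs summed). In single mice it was far from even. In HCC mouse 1 there were 56589 UMIs of miR-223-3p and 39067 of miR-142a-3p, and in HCC mouse 5 there were 36407 and 102069. MiR-223-5p over miR-142a-5p differed by 1.16 on the log2 scale (exact permutation p = 0.148).

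Over the 13 mice, the arms of a hairpin moved together on both scales. On the spike-in scale Pearson r was 0.96 for the arms of miR-223 and 0.95 for those of miR-142a. Correlations of 6 pairs of members were computed, and their p-values, from 100000 permutations, are not adjusted. As log2 shares, miR-223-3p and miR-223-5p had a Pearson r of 0.93 (permutation p = 2e-05) and a Spearman rho of 0.86 (permutation p = 0.00046), and r was 0.91 without non-HCC mice 4 and 5, the farthest from the median. Among the HCC mice alone r was 0.95 (n = 8, exact permutation p = 0.00203), and 0.87 without the similar mice 2 and 5 (n = 6, exact permutation p = 0.05). With the pairs summed r was 0.93 over 10 libraries. Of 698 miRNAs with 10 UMIs or more in all mice, miR-223-5p was the one most correlated with miR-223-3p.

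MiR-142a-3p and miR-142a-5p had an r of 0.92 (permutation p = 1e-05, the smallest these permutations can give) and a rho of 0.87 (permutation p = 0.00018), and r was 0.81 without non-HCC mouse 5 and HCC mouse 1. Among the HCC mice alone r was 0.84 (n = 8, exact permutation p = 0.00588), but without the similar mice 1 and 6 it was 0.47, so within HCC it rested on those mice. With the pairs summed r was 0.92 over 10 libraries. The 5p arm was the 6th of 698 miRNAs in correlation with miR-142a-3p as shares. It was the 27th on the spike-in scale, where the median r of miR-142a-3p with these miRNAs was 0.61.

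Between the hairpins, the correlation depended on the scale. On the spike-in scale, where every level of a mouse is divided by the same spike-in count and the median r of miR-223-3p with 698 miRNAs was 0.61, miR-223-3p and miR-142a-3p had an r of 0.80 (permutation p = 0.00119) and a rho of 0.79 (permutation p = 0.00203). As shares the r was 0.53 (permutation p = 0.0635) and the rho 0.55 (permutation p = 0.0546), and without non-HCC mice 4 and 5 r was 0.22. With the pairs summed it was 0.59 (permutation p = 0.0733), and 0.64 without HCC library 2 and non-HCC library 4. Among the 8 HCC mice alone r was -0.40 (n = 8, exact permutation p = 0.316), and over deviations from the group means it was -0.11 (permutation p = 0.732). As shares among these HCC mice, miR-142a-5p had an r of -0.62 with miR-223-3p (exact permutation p = 0.0987) and -0.75 with miR-223-5p (exact permutation p = 0.0322). MiR-142a-3p had -0.60 with miR-223-5p (exact permutation p = 0.127). On the spike-in scale these were 0.71, 0.62 and 0.66 in that order. As shares without the similar HCC mice 2 and 5, they were -0.30, -0.66 and -0.71 (n = 6, exact permutation p = 0.526, 0.176 and 0.149). The rho of these shares over the 8 HCC mice was -0.43, -0.67 and -0.45 (exact permutation p = 0.299, 0.0831 and 0.267). With the pairs summed, r of the shares over deviations from group means was -0.17, -0.33 and -0.06. By correlation with miR-223-3p, miR-142a-3p was only the 99th of 698 miRNAs as shares and the 66th on the spike-in scale.

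**Figure D5:**
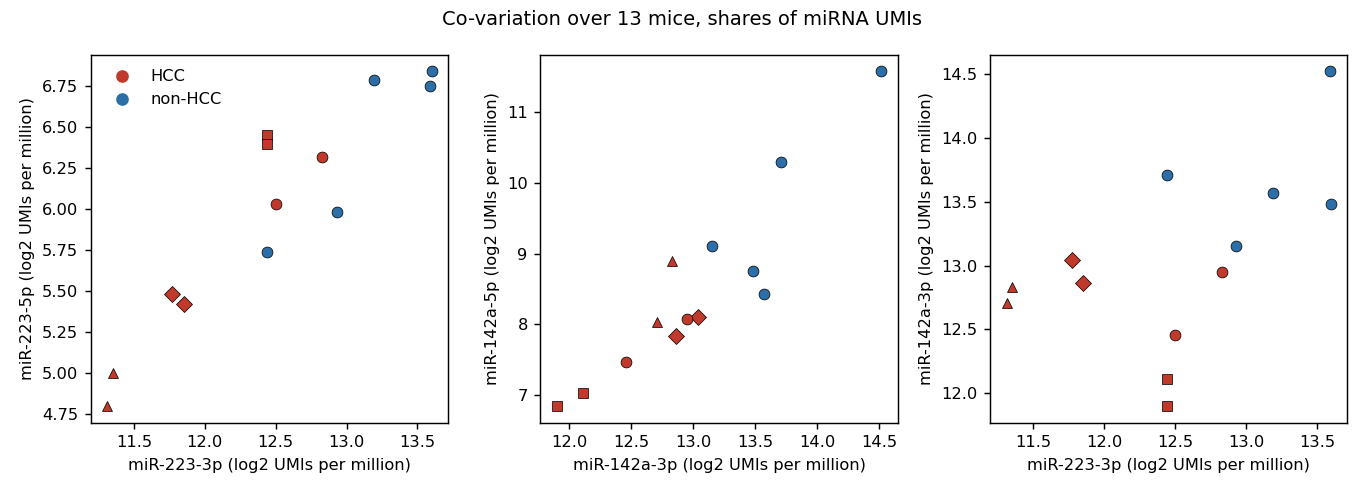
Log2 share of all miRNA UMIs of 1 member against another over 8 HCC (red) and 5 non-HCC (blue) mice, with similar HCC libraries sharing a marker. The arms of miR-223 (left, r = 0.93) and of miR-142a (middle, r = 0.92) line up, and miR-223-3p against miR-142a-3p (right, r = 0.53) separates mainly by group.

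The miRNAs whose share was most like that of miR-223-3p over the 13 mice, after its own 5p arm, were miR-150-3p (r = 0.87), miR-147-3p (r = 0.84), miR-7682-3p (r = 0.81) and miR-425-5p (r = 0.80). Those most like miR-142a-3p were miR-98-5p (r = 0.96), miR-141-3p (r = 0.96), miR-9-3p (r = 0.96), let-7g-5p (r = 0.95) and miR-3969 (r = 0.94). The median r over all 698 miRNAs was 0.20 for miR-223-3p and -0.13 for miR-142a-3p. These correlations describe the ranking and share the libraries and their depth.

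The other blood-cell lists differed in how their values lay against those of the members, all 4 of which were below 0. Of 5 further miRNAs listed for platelets and myeloid cells, 0 were called on the spike-in scale, with a median log2 fold change of 0.78, equal to that of all 1452 miRNAs. The list was set by name, and these data do not show which cells or tissues its miRNAs came from. The nearest to the members was miR-126a-3p, which is abundant in endothelium and platelets, at -0.14 (adjusted p = 0.963), and miR-21a-5p stood highest at 1.93 (adjusted p = 0.139). On the total-UMI scale miR-21a-5p rose by 1.22 (adjusted p = 0.0405). Their summed share was 4.49 to 10.4% with HCC and 3.85 to 5.26% without.

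Of 5 lymphoid miRNAs, 0 were called on the spike-in scale (median 0.47). MiR-150-5p, abundant in mature lymphocytes, stood lowest at -1.82 (adjusted p = 0.0957), and miR-155-5p, induced on activation of lymphocytes and macrophages, was at -1.06 (adjusted p = 0.453). On the total-UMI scale both fell, by 2.36 (adjusted p = 0.000347) and 1.62 (adjusted p = 0.00557), while miR-146a-5p was at 0.70 (adjusted p = 0.179). MiR-150-5p is thus the blood-cell miRNA of these lists with the most negative value on both scales.

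Of 6 red cell miRNAs, 0 were called on the spike-in scale, but all 6 had a log2 fold change below 0, as the members did, from -1.35 for miR-144-5p to -0.13 for miR-16-5p (median -0.54). On the total-UMI scale all 6 lay between -2.26 and -0.63 (median -1.04), and miR-144-5p alone was called (adjusted p = 0.036). The red cell miRNAs summed to 6.69 to 39.5% of the UMIs in HCC and 36.5 to 38.9% in non-HCC mice. Non-HCC mouse 5, which had the highest miR-142a levels, also had the highest summed spike-in level of the platelet and myeloid, lymphoid, red cell and liver lists among the non-HCC mice, and HCC mouse 5 had the highest of these 4 lists among the HCC mice. The same mice had the lowest UniSP2 counts of their groups, 364466 and 165794 UMIs. No listed miRNA was at 0 in any mouse. The part of red cells, platelets or other blood cells in the members' values was not tested, and in plasma fewer cells of a type and less miRNA released per cell cannot be told apart.

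The tissue lists moved otherwise. Of 5 liver miRNAs, 4 rose on the spike-in scale (median 4.51), led by miR-122-5p at 7.34 (SE 1.17, adjusted p = 0.00303), and the list took 4.14 to 51.8% of UMIs in HCC and 0.908 to 1.15% in non-HCC mice. Of 5 muscle miRNAs, 0 were called (median 1.47), among them miR-1a-3p at 1.79 (adjusted p = 0.277). The members' values lay below the medians of both lists on the spike-in and total-UMI scales.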

How the data were processed

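The members, lists and tests were chosen with earlier results of these data known. Small RNA libraries of the plasma of 8 HCC and 5 non-HCC C3H mice were sequenced as single-end reads of 76 nt. Alignment to GRCm38 and naming by miRBase 20 were done by the authors, who deposited raw UMI counts, 1 column for each mouse and not normalized. FastQC and Bowtie2 are named in the submitters' processing notes. The lowest listed count is 10, and entries of 0 (30.6%) are read as fewer than 10 UMIs. Columns were matched to mice by the mouse names in the labels. A second deposited table holds 53 columns that could not be tied to a label by name. These 53 were not used, and the F2 mice were not analysed here.

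From the counts, edgeR 4.0.16 in R 4.3.3 compared HCC with non-HCC mice by the quasi-likelihood test, with the spike-in mean as library scale, Benjamini-Hochberg adjustment over 1452 miRNAs and a threshold of 0.05. The SE of a fitted log2 difference was taken as its absolute value divided by the root of F. Arm ratios, with 1 UMI added to each count, were fitted with limma 3.58.1 over 161 hairpins whose arms were matched by name. Single values were compared by exact two-sided permutation over 1287 splits of the mice, or 252 with the pairs summed, in Python 3.11.15. Intervals are 95% Wilson intervals and cover counting error only. The miRNAs named are the members, miRNAs that share a seed with them, the 5 most correlated with miR-223-3p and with miR-142a-3p, and the lists. MiR-142b was added for its overlap with miR-142a. The other lists were miR-126a-3p, miR-126a-5p, miR-191-5p, miR-24-3p and miR-21a-5p (platelet and myeloid), miR-150-5p, miR-155-5p, miR-146a-5p, miR-342-3p and miR-181a-5p (lymphoid), miR-16-5p, miR-451a, miR-363-3p, miR-144-5p, miR-486a-5p and miR-144-3p (red cell), miR-192-5p, miR-101b-3p, miR-122-5p, miR-194-5p and miR-122-3p (liver), and miR-206-3p, miR-1a-3p, miR-499-5p, miR-133a-3p and miR-208b-3p (muscle). Alternatives were other library scales, limma and DESeq2 1.42.0, other filters and added counts, a replicate block and each mouse left out. Summing the similar pairs was added after the data were seen. The edgeR and limma fits were tested on simulated data.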

Additional observations from a re-analysis of the deposited data

Results flagged for a closer look

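In 1 of 30 groups of values searched, a single mouse stood far from the rest of its group. The log2 ratio of miR-142a-3p over miR-142a-5p was 3.93 in HCC mouse 5, the lowest of 8, and the next HCC mouse was at 4.68, a gap of 0.646 of the group's range. Chance flags about 1 in 20 such groups. HCC mouse 2, whose library resembled that of mouse 5, was the next lowest.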

How the results depend on the processing

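The 109 calls over all miRNAs became 54 with limma, 181 with DESeq2 on spike-in and 217 on its own size factors, and 44 (without non-HCC mouse 1) to 157 (without HCC mouse 3) with 1 mouse left out. Levels passed the exact permutation test with total UMIs as scale at -1.09 (miR-223-3p), -1.08 (miR-142a-3p) and -1.85 (miR-142a-5p), and with TMM factors at -1.19, -1.18 and -1.95, with miR-223-5p at -0.78. The share of miR-223-3p without miR-122-5p in the total was at -0.71. With both arms at 100 UMIs or more, 15 arm ratios were called instead of 33, of fewer hairpins, and that of miR-223 passed at -0.41 (limma adjusted p = 0.0402). The log2 ratio of miR-223-3p over miR-142a-3p turned to 0.09 with the pairs summed and ran from -0.19 to 0.15 with 1 mouse left out, turning in 7 of 13 cases. Correlations between the hairpins lost their call as shares (0.53, 0.39, 0.27 and 0.12), that of miR-142a-5p with miR-223-3p (0.58) and miR-223-5p (0.51) without 2 mice, and the latter with the pairs summed (0.61). The cause of these changes was not tested.

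With 1 mouse left out, levels ran from -0.93 to -0.41 (miR-223-3p), -0.52 to -0.03 (miR-223-5p), -0.98 to -0.30 (miR-142a-3p) and -1.91 to -0.79 (miR-142a-5p, which passed only without HCC mouse 5, permutation p = 0.0429). Shares ran from -1.27 to -0.98, -0.85 to -0.55 (passing only without non-HCC mouse 2, permutation p = 0.0465), -1.21 to -0.87 and -2.15 to -1.36 in that order. Arm ratios ran from -0.49 to -0.35 (miR-223) and 0.49 to 1.04 (miR-142a, which passed only without non-HCC mouse 1, limma adjusted p = 0.0302), with 30 to 42 hairpins called. The edgeR log2 fold changes ran from -0.43 to 0.14 (miR-223-5p) and -0.92 to 0.16 (miR-142a-3p), turning only without non-HCC mouse 5.

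Replicate numbers did not pair the mice, since the deviations of same-numbered mice correlated at -0.13 to 0.07. With the replicate block, edgeR called 145 miRNAs, limma called 43 arm ratios, and no call on a member changed.

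Depth did not limit the members, whose lowest count was 395 UMIs. Whether a member was called turned on the library scale.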

Other observations

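The arm ratio and the shares of miR-142a moved with the base composition of the libraries. Of 699 miRNAs counted in all mice, 596 had a matched sequence, and the median log2 share, relative to its mean over mice, of the miRNAs with under 40% GC minus that of the miRNAs with over 55% GC gave an index for each mouse. It was 0.77 in non-HCC mouse 5 and 0.56 in HCC mouse 5, which had the lowest miR-142a arm ratio of their groups, and it was lowest at -0.83 in HCC mouse 6. Over the 13 mice the index correlated with the log2 3p over 5p ratio of miR-142a at r = -0.75 (permutation p = 0.00281) and rho = -0.74 (permutation p = 0.00516), and r was -0.63 without the mice farthest from the median. Among the HCC mice alone r was -0.83 (n = 8, exact permutation p = 0.000347, with the similar pairs counted as separate mice). Over deviations from group means r was -0.67, and with the pairs summed it was -0.75 (n = 10, permutation p = 0.0118). Leaving out non-HCC library 5 and HCC library 1 from the summed set gave -0.55 (n = 8, exact permutation p = 0.162). With the log2 share of miR-142a-3p it correlated at r = 0.76 (permutation p = 0.00264) and rho = 0.61 (permutation p = 0.0319), with r of 0.54 without the mice farthest from the median and 0.73 over deviations from group means. With that of miR-142a-5p it correlated at r = 0.82 (permutation p = 0.00037) and rho = 0.76 (permutation p = 0.0041), with r of 0.70 and 0.79 in the same order. In the 8 HCC mice r was 0.66 for miR-142a-3p (exact permutation p = 0.0806) and 0.89 for miR-142a-5p (exact permutation p = 0.00449). Without HCC mice 5 and 6 these were 0.56 and 0.73 (n = 6, exact permutation p = 0.263 and 0.111). With the share of miR-223-3p r was 0.05 over the 13 mice (permutation p = 0.86). Among the HCC mice alone it was -0.74 (n = 8, exact permutation p = 0.0376), and -0.65 without HCC mice 5 and 6. Over deviations from group means it was -0.45 (permutation p = 0.121). The correlations of the index with shares were not computed with the pairs summed. With the arm ratio of miR-223 the index had an r of 0.61 (permutation p = 0.0294), which was 0.34 without the mice farthest from the median. The rho was 0.46 (permutation p = 0.12). For this ratio r was 0.45 over deviations from group means (permutation p = 0.124) and 0.59 with the pairs summed (n = 10, permutation p = 0.0683). The GC content is 34.8% for miR-142a-3p and 33.3% for miR-142a-5p, and 40.9% and 43.5% for miR-223-3p and miR-223-5p. The index did not differ between groups beyond the spread between mice (difference -0.41, exact permutation p = 0.118). It was chosen after the arm ratios were seen, and its part in the ratios and shares was not tested.

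In all HCC and non-HCC mice the antisense miR-142b was rarer than miR-142a-3p, by a mean log2 ratio of 6.44 in HCC and 6.17 in non-HCC mice, which differed by 0.27 (exact permutation p = 0.581). Its correlation with miR-142a-5p over the 13 mice was 0.74 as shares, and that with miR-142a-3p was 0.58.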
